A study of Mus musculus with 5 samples.

Results

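Keratins and claudins build the filaments and the seals of epithelial cells, and their genes were followed here through cardiac differentiation of mouse stem cells in culture. The members were taken by name alone: every array probe named as a numbered keratin, older Krt1 and Krt2 names included and keratin-associated proteins left out, or as a numbered claudin other than Cldn5. This gave 47 of the 14960 named genes on the arrays, read by 56 of 28845 probes, of which 35 stood for 30 keratin genes and 21 for 17 claudin genes. Krt8 and Krt18, which both rose more than 2-fold from stem cells to cardiac progenitors, and Cldn6 were the defining genes of the group and were well above background in every population.

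The study set out to profile gene expression in a culture model of heart formation. Stem cells were grown as embryoid bodies, which are floating aggregates that differentiate, and cells carrying a lineage marker were isolated. The 4 populations were undifferentiated stem cells positive for Rex1 at day 0, early mesodermal cells positive for Bra at day 4.5, cardiac mesodermal cells positive for Flk1 at day 4.5, and cardiac progenitor cells positive for Nkx2.5 at day 7.5. Total RNA of a pair of populations was hybridised to each of 5 oligonucleotide arrays in Cy5 and Cy3, and ratios are given as Cy5 over Cy3. On 3 arrays Rex1 RNA was paired with Bra, Flk1 or Nkx2.5 RNA, and on the other 2 Nkx2.5 RNA was paired with Bra or Flk1 RNA. Rex1 RNA was always labelled with Cy3 and Nkx2.5 RNA always with Cy5. Every ratio of Nkx2.5 over Rex1, direct or by way of another population, therefore holds a dye difference. Bra and Flk1 RNA were labelled with Cy5 beside Rex1 and with Cy3 beside Nkx2.5. The cell line, the way the marker was detected and whether an RNA extract was used on more than 1 array are not stated in these sources. No pair was hybridised more than 1 time, and no test between populations was made, so no p-value is given.

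In place of replicates, each comparison was read by 2 routes. The first reading was the log2 ratio on the array that carried both populations. The second was the sum or difference of log2 ratios over the other arrays that join them, and for Nkx2.5 over Rex1 it averaged the route by way of Bra and the route by way of Flk1. For Flk1 over Bra, which had no array of its own, the first reading ran through Rex1 and the second through Nkx2.5. A probe was called where both readings had the same sign and reached a log2 ratio of 1, a 2-fold difference, with the brighter population well above background on every array that carried it. Well above background means above percentile 95 of the 96 negative control spots, taken for each array and channel. The gaps between routes put the error of the log2 ratio of 1 array at 0.24 (SD) over all probes and at 0.21 over the 56 members. Since Bra and Flk1 RNA carried both dyes, a constant dye effect of a probe would also enter these gaps. It was not estimated apart from the error.

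Signal quality differed between the arrays. Between 77.6% and 95.2% of spots were well above background in a channel. The median Cy3 signal after background subtraction was 0.308 to 0.345 of the background on the arrays with Rex1, against 0.993 and 0.613 on the arrays that paired Nkx2.5 with a mesodermal population, Bra first. Among the members, 50 of 56 were well above background in both channels of every array, or 89.3%, against 73.1% of all probes. Of the genes used to isolate the cells, Zfp42, which encodes Rex1, was called lower in the other 3 populations than in Rex1 cells, at -1.74 and -1.19 in Bra, -1.76 and -1.18 in Flk1 and -1.68 and -2.25 in Nkx2.5. The genes T, which encodes Bra, Kdr, which encodes Flk1, and Nkx2-5 were called in no comparison. T gave 1.07 and 0.73 in Bra over Rex1 and 0.81 and 0.46 in Flk1 over Rex1. Kdr gave 0.68 and 0.64 in Flk1 over Rex1 and 0.83 and 0.63 in Flk1 over Bra. Nkx2-5 gave 0.53 and 0.91 in Nkx2.5 over Rex1, 0.75 and 0.76 over Bra and 1.40 and 0.63 over Flk1.

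Keratins are the intermediate filaments of epithelial cells and form pairs of a type I and a type II chain. Krt8 and Krt18 are such a pair and are the first keratins made in the embryo. They mark simple, single-layered epithelia together with Krt7 and Krt19. Keratins of stratified epithelia are made in the skin, the cornea and the lining of the mouth and gullet, and those of hair and the inner root sheath in the hair follicle. Claudins span the membrane and form the strands of tight junctions. Barrier-forming claudins close the space between cells, and channel-forming claudins let selected ions or water through. Cldn6 is best known from embryonic epithelia.

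Krt8, Krt18, Cldn6 and Cldn7 were called higher in Nkx2.5 cells and were well above background in every channel, and their promoters are shown because all 4 were called in the same comparison. Each window holds 250 bases before and 50 after a transcription start in RefSeq on GRCm38.p6. Krt8 lies on the minus strand at chr15:102004293-102004592, and Krt18, the next protein-coding gene, on the plus strand at chr15:102027966-102028265. Cldn6 lies on the plus strand at chr17:23679115-23679414, with Cldn9 as the next protein-coding gene. Cldn7 has 2 starts on the plus strand, with windows at chr11:69964529-69964828 and chr11:69965171-69965470. Capitals mark matches, on either strand, to the TATA box TATAAA and the GC box GGGCGG.
Krt8 promoter: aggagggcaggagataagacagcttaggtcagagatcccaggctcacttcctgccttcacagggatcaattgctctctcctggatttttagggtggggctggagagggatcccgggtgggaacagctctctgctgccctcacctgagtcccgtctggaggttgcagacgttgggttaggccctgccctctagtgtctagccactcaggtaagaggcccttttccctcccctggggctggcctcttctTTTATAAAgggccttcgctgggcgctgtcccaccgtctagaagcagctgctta
Krt18 promoter: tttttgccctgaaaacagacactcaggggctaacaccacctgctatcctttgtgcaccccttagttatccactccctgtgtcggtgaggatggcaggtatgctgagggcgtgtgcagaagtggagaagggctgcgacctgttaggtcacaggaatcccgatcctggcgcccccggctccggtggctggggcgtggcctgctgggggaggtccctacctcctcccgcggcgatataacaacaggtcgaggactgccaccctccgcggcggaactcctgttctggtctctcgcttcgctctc
Cldn6 promoter: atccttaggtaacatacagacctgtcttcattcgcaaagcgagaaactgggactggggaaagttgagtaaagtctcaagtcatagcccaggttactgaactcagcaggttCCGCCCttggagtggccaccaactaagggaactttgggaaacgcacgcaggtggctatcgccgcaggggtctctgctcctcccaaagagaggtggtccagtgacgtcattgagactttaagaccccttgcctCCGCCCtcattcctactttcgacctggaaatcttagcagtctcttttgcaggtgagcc
Cldn7 promoter, upstream start: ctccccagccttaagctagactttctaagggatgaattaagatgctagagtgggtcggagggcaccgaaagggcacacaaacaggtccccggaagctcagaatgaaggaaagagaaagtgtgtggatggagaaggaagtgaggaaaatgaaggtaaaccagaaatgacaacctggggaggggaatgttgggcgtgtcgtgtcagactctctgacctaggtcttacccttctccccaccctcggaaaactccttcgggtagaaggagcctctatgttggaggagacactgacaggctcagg
Cldn7 promoter, downstream start: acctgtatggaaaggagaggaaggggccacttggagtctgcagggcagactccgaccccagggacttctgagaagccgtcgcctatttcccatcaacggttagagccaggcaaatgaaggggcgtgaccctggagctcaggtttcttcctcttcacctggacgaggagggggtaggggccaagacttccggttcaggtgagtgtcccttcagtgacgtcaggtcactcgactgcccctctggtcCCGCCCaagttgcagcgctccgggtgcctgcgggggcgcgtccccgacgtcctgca

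The Krt8 window held 2 overlapping matches to TATAAA, which begin 3 bases and 1 base before the start (positions -3 and -1), a motif found in 13.6% of all 32851 RefSeq promoters of this length. The Krt18 window held no match to either motif. The GC box was found on the reverse strand at positions -140 and -8 in Cldn6 and at -6 in the downstream window of Cldn7, and in 35.7% of all promoters. The AP-1 site TGANTCA, present in 7.8% of promoters, was in none of the 5 windows. The share of G and C was 58.0% for Krt8, 61.3% for Krt18, 52.3% for Cldn6 and 52.0% and 62.3% for Cldn7, against a median of 52.7%. A match is only a description of the letters. Promoter entries were matched for 33 of the 47 member genes.

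In cardiac progenitors against stem cells, 5 members were called higher and 1 lower. The 5 were Krt8, Krt18 and Krt34 among the keratins and Cldn6 and Cldn7 among the claudins, and the lower one was a probe of Cldn18. These are 8.93% of the 56 members higher and 1.79% lower, where 2.68% of all 28845 probes were called higher and 0.707% lower. In Bra over Rex1 none of the 56 was called, where 1.16% of all probes were called higher and 0.246% lower. In Flk1 over Rex1 none was called either, beside 0.669% higher and 0.274% lower over all probes. Nkx2.5 over Flk1 gave 2 members called higher, Krt18 and Krt19, or 3.57%, and none lower, beside 0.34% and 0.101% of all probes. In Nkx2.5 over Bra none of the members was called, beside 0.319% higher and 0.0728% lower. In Flk1 over Bra none was called, beside 0.0173% and 0.00347%. All 6 comparisons draw on the same 5 arrays, so their calls are not separate measurements.

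**Figure D1:**
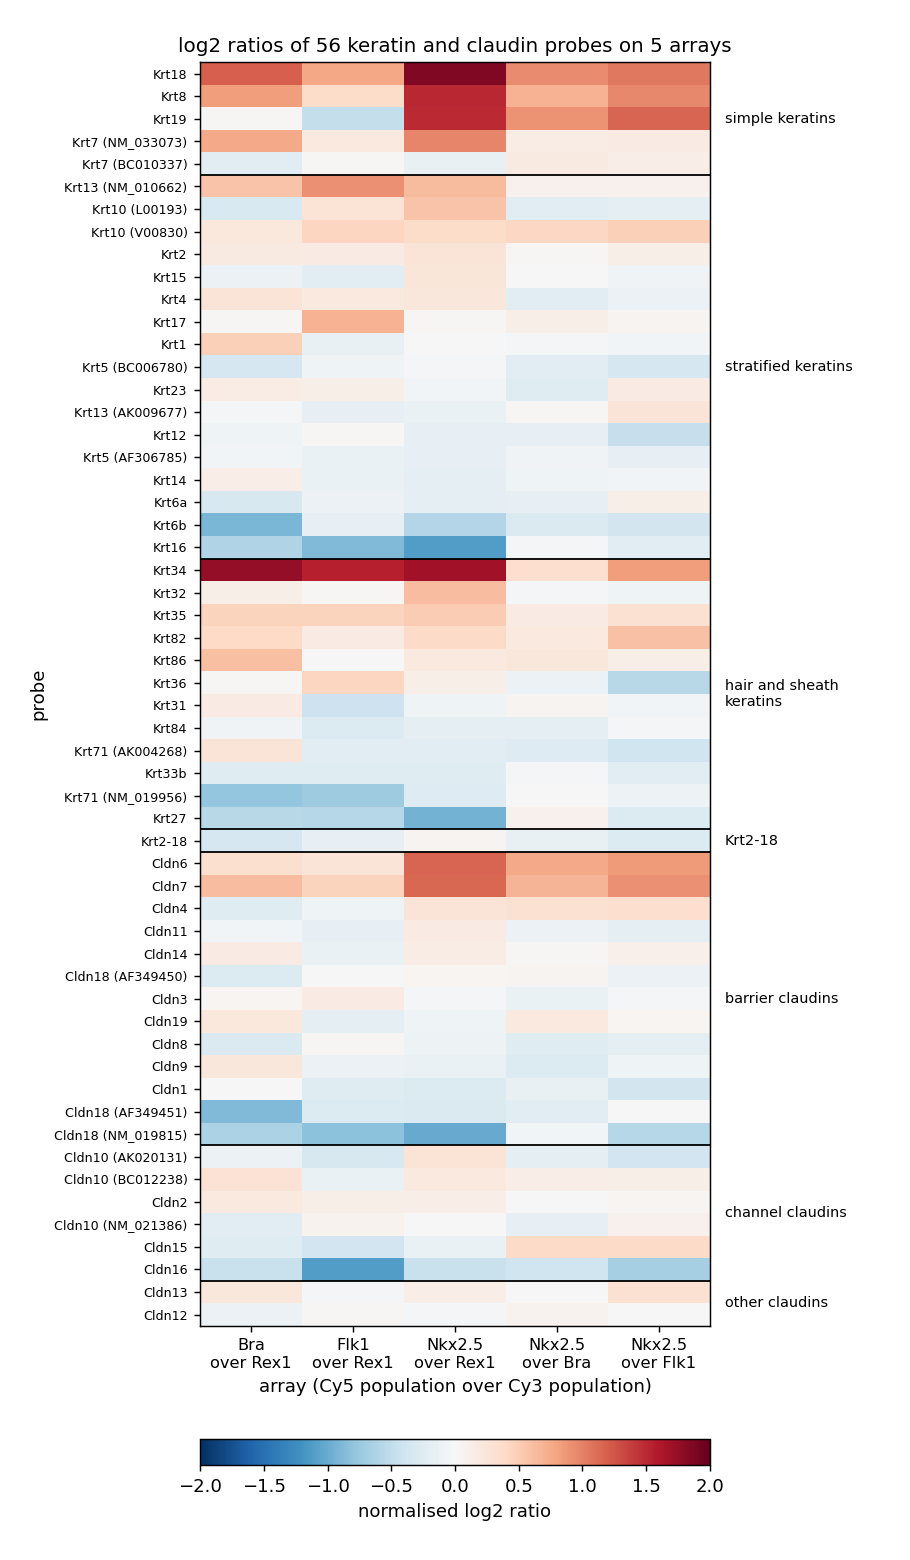
Normalised log2 ratio of each of the 56 keratin and claudin probes (rows, grouped by family and ordered by Nkx2.5 over Rex1 within it) on each of the 5 arrays (columns); red is higher in the Cy5 population named first, and the scale runs from -2 to 2. Krt18, Krt8, Cldn6 and Cldn7 are red in every column, with their highest values in Nkx2.5 over Rex1 at 1.85, 1.51, 1.16 and 1.15, while most other rows stay pale.

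Among the keratins of simple epithelia, Krt8 and Krt18 rose from stem cells to Nkx2.5 cells, while the keratins of other epithelia were centred near 0. The 5 probes of simple keratins had a median log2 ratio of 1.49 and 0.81 in the 2 readings of Nkx2.5 over Rex1, with 2 called higher and none lower. The 30 probes of all other keratins had medians of -0.02 and -0.12, with 1 called higher and none lower. The median over all probes was 0.01 and 0.00. Against the day 4.5 populations the simple keratins also had positive medians, at 0.69 and 0.65 against Bra cells and at 0.96 and 1.07 against Flk1 cells, where the other keratins had -0.03 and -0.01 and then -0.07 and 0.02. From stem cells to mesoderm the simple keratins had medians of 0.75 and 0.82 in Bra over Rex1 and of 0.20 and 0.55 in Flk1 over Rex1, with none called. No test of these lists was made.

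**Figure D2:**
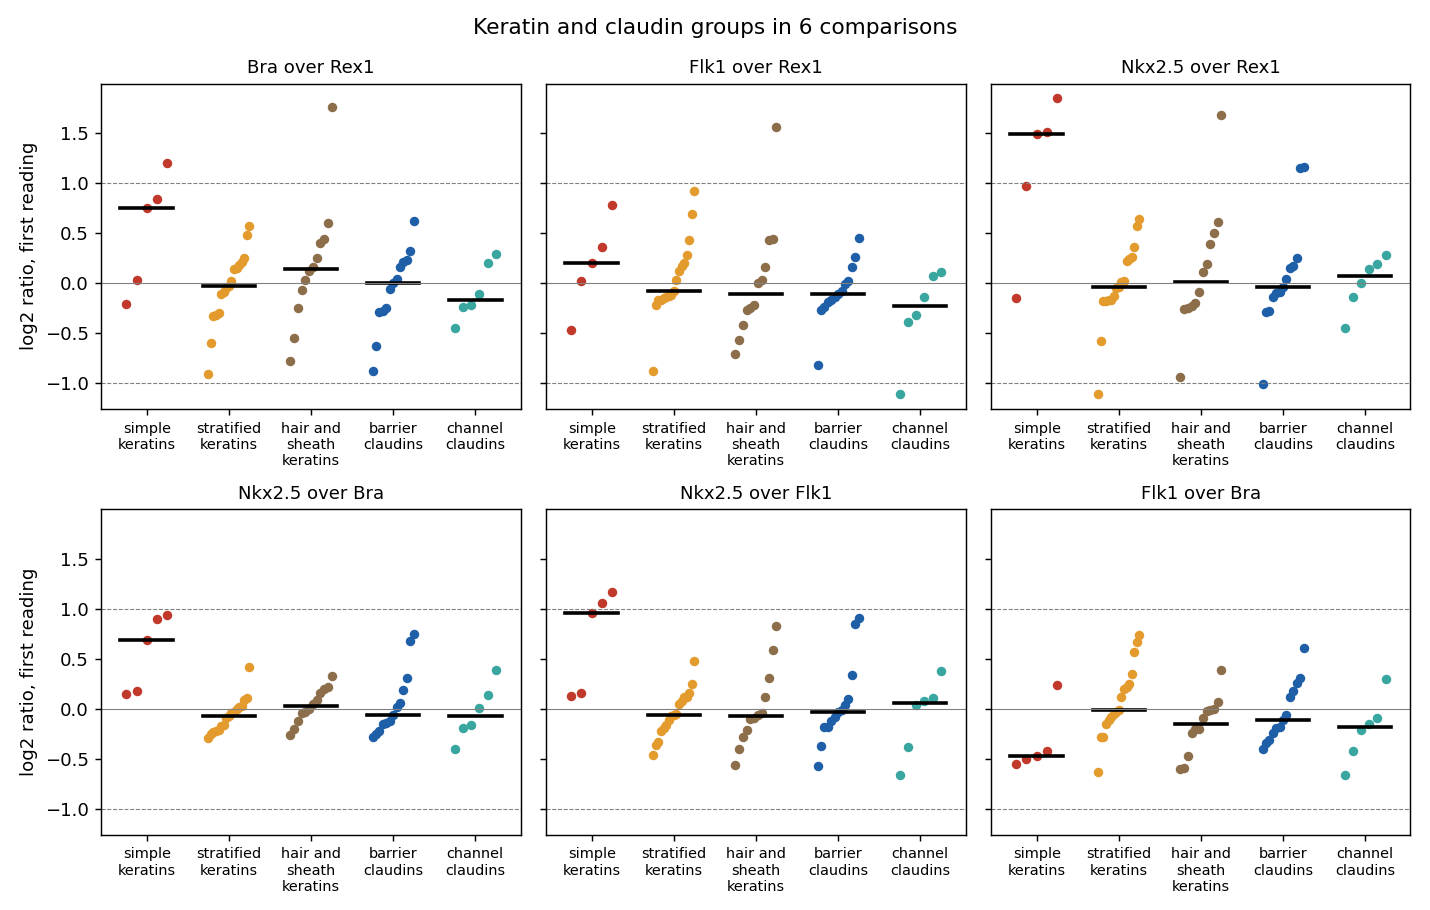
First reading of the log2 ratio (vertical axis) of each probe of 5 groups of keratins and claudins in the 6 comparisons; 1 point is 1 probe, black bars are group medians and dashed lines mark a 2-fold difference. The simple keratins have their highest median, 1.49, in Nkx2.5 over Rex1, while the medians of stratified keratins (-0.04) and barrier claudins (-0.04) lie near 0 there.

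Krt18, the type I partner of Krt8, had the largest difference of the simple keratins in Nkx2.5 over Rex1. Its normalised log2 signal was 11.77, 11.83 and 12.32 in Rex1 cells, 13.02 and 13.36 in Bra cells, 12.55 and 13.29 in Flk1 cells and 14.17, 14.30 and 14.34 in Nkx2.5 cells. The 3 Nkx2.5 values lay above all others, the 3 Rex1 values lay below all others, and the Bra and Flk1 ranges overlapped. Each range rests on 2 or 3 values, so separate ranges alone do not set a gene apart, here or for the genes below. The Rex1 and Nkx2.5 ranges were also separate for uncalled probes, such as Krt5 (AF306785), at 12.97 to 13.05 against 12.75 to 12.88. The log2 ratio of Nkx2.5 over Rex1 was 1.85 on the array, a 3.60-fold difference, and 1.99 by the second reading, and Krt18 was called. It was also called in Nkx2.5 over Flk1, at 1.06 and 1.07. That call lies at the edge of the rule and was lost with no background subtraction, with plain background subtraction, with median centring and with the deposited series table. In Nkx2.5 over Bra the readings were 0.94 and 0.65. Between stem cells and mesoderm they were 1.20 and 0.91 for Bra and 0.78 and 0.79 for Flk1, so Bra over Rex1 missed the call by its second reading alone. Flk1 over Bra gave -0.42 and -0.11.

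Krt8, the type II chain, followed the same order. Its log2 signal was 12.07, 12.19 and 12.43 in Rex1 cells, 12.90 and 13.32 in Bra cells, 12.55 and 13.16 in Flk1 cells and 13.94, 14.02 and 14.12 in Nkx2.5 cells. The Nkx2.5 values again lay above all others, the Rex1 values below all others, and Bra and Flk1 overlapped. Nkx2.5 over Rex1 was 1.51, a 2.85-fold difference, and 1.43 by the second reading, and Krt8 was called. Without background subtraction the same ratio was 0.82 for Krt8 and 0.80 for Krt18, and both calls were lost. The difference from Flk1 cells was 0.96 and 1.15 and from Bra cells 0.69 and 0.68, with no call in either. Bra over Rex1 gave 0.84 and 0.82, Flk1 over Rex1 0.36 and 0.55, and Flk1 over Bra -0.47 and -0.27. In whole sorted populations, a larger share of cells with keratin and more keratin RNA in each cell cannot be told apart.

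**Figure D3:**
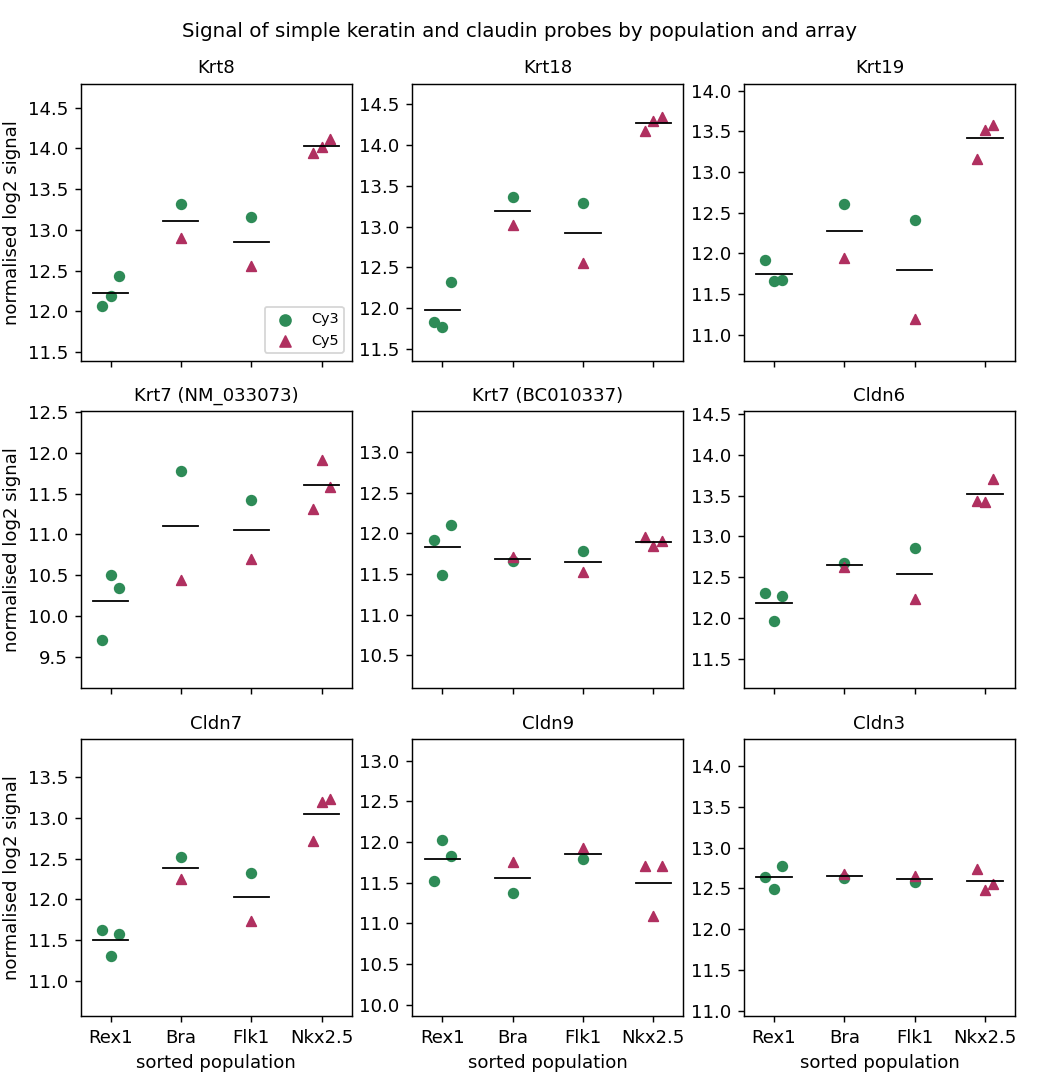
Normalised log2 signal (vertical axis; each panel spans the same range) of 9 probes in the 4 sorted populations, with 1 point for each array and channel, circles for Cy3, triangles for Cy5 and bars for means. For Krt8 and Krt18 the 3 Nkx2.5 points, at 13.94 and above and at 14.17 and above, lie above all others. The 2 Bra and 2 Flk1 points overlap between the populations. Within each of these populations the Cy3 and Cy5 points come from different arrays, so dye and array cannot be told apart.

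Krt19, a type I keratin of simple epithelia without a tail domain, differed from Krt8 and Krt18 in mesoderm. Its log2 signal was 11.66, 11.67 and 11.92 in Rex1 cells, 11.95 and 12.61 in Bra cells, 11.19 and 12.41 in Flk1 cells and 13.16, 13.51 and 13.58 in Nkx2.5 cells. The Nkx2.5 values lay above all others, while the Flk1 values fell on both sides of the Rex1 range. Krt19 was called in Nkx2.5 over Flk1, at 1.17 and 1.96, a call that was lost with no background subtraction and with the deposited series table. In Nkx2.5 over Rex1 it reached 1.49 on the array, a 2.81-fold difference, but 0.81 by the second reading and was not called. Bra over Rex1 gave 0.03 and 0.59, and Flk1 over Rex1 gave -0.47 and 0.32, with opposite signs. For Krt19 the Cy3 value was above the Cy5 value in both mesodermal populations, by the larger margin in Flk1 cells. The Cy3 values come from the arrays with Nkx2.5 and the Cy5 values from the arrays with Rex1. The array of Nkx2.5 with Rex1 read 0.56 above the route by way of Bra and 0.79 above that by way of Flk1. For Krt8 these gaps were -0.02 and 0.19, and for Krt18 -0.29 and 0.02. The part of the dye in these readings was not tested.

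Krt7, another type II keratin of simple and glandular epithelia, had 2 probes that disagreed. The probe for NM_033073 gave 0.97 and 0.63 in Nkx2.5 over Rex1, 0.75 and 0.82 in Bra over Rex1 and 0.20 and 0.81 in Flk1 over Rex1. Its Rex1 signal was well above background on 2 of 3 arrays. The probe for BC010337, well above background throughout, gave -0.15 and 0.06, then -0.21 and -0.34, then 0.02 and -0.28 in the same comparisons. Neither was called in any comparison. No member probe was named Krt20.

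The keratins of stratified epithelia gave no call, where 2.68% of all probes were called higher and 0.707% lower in Nkx2.5 over Rex1. Of their 17 probes, 12 had log2 ratios below 0.5 in size on all 5 arrays, where 61.8% of all probes did. Among the 12 hair and inner root sheath probes, 4 did. Krt5 and Krt14, the pair of basal keratinocytes, lay between -0.04 and -0.18 in the first reading of Nkx2.5 over Rex1 and between -0.47 and -0.07 in the second. Krt1, made in the layers above, gave 0.01 and 0.12. The highest stratified probe, for Krt13 (NM_010662), a keratin of the lining of the mouth and gullet, reached 0.64 and 0.83 in Nkx2.5 over Rex1 and 0.92 and 0.56 in Flk1 over Rex1. The other Krt13 probe, for AK009677, gave -0.13 and 0.03 and then -0.17 and -0.38. Krt6b, a keratin of the hair follicle and of wounded skin, gave -0.58 and -0.87 in Nkx2.5 over Rex1 and -0.91 and -0.28 in Bra over Rex1. Krt16 came near a lower call, with -1.11 and -0.87 in Nkx2.5 over Rex1 and -0.88 and -0.89 in Flk1 over Rex1. Its Rex1 signal was well above background on 2 of 3 arrays. It was named after its values were seen.

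Krt34, a hair keratin, was the only one of the 12 hair and inner root sheath probes to be called, and it was dim. Its log2 signal was 8.99, 9.15 and 9.75 in Rex1 cells, and none of these was well above background. In Nkx2.5 cells it was 9.61, 9.75 and 10.67, all well above background. The Bra values were 9.41 in Cy3 and 10.92 in Cy5, and the Flk1 values were 8.78 and 11.31, with only the Cy5 value well above background in each. The ranges of all 4 populations overlapped. Nkx2.5 over Rex1 read 1.68 and 2.25, and no fold is given because the limit set by the background in Rex1 cells was about as high as the mean Nkx2.5 signal. Without background subtraction its log2 ratio was -0.0047 and the call was lost. Of all probes dim in Rex1 on every array, 10.6% were called higher in this comparison, against 0.716% of those well above background there.

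No other hair or sheath keratin was called. Krt27, of the inner root sheath, gave -0.94 and -0.65 in Nkx2.5 over Rex1, with -0.55 and -1.03 in Bra over Rex1 and -0.57 and -0.66 in Flk1 over Rex1. Krt35, of the hair cortex, gave 0.50 and 0.68, then 0.44 and 0.34, then 0.44 and 0.19. Krt36 gave 0.43 and 0.67 in Flk1 over Rex1 and was not well above background in Rex1 cells on any array. Keratins outside the simple group were called in no comparison between Nkx2.5 and mesoderm. Krt34 had the highest first reading in Nkx2.5 over Flk1, 0.83, with a second reading of 0.12, and the dim Krt82 gave 0.59 and 0.22. Krt10 (V00830), of the upper epidermis, gave 0.42 and 0.15 in Nkx2.5 over Bra, and Krt71 (AK004268), of the inner root sheath, gave -0.26 and -0.48. Krt23 gave -0.25 and -0.20 there, and Krt86 gave 0.12 and 0.19 in Nkx2.5 over Flk1. Krt6b gave -0.36 and -0.41 and Krt36 gave -0.56 and -0.32 in that comparison. In Flk1 over Bra, Krt36 gave 0.39 and 0.44 and Krt84 gave -0.20 and -0.17, while the dimmer Krt34 and Krt82 gave -0.20 and -0.50 and then -0.24 and -0.39. Krt82 was well above background only in Nkx2.5 cells, on 1 of 3 arrays. The probe named Krt2-18, with no current symbol, gave 0.06 and -0.46 in Nkx2.5 over Rex1.

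Among the barrier claudins, Cldn6 and Cldn7 were the only ones called higher. For Cldn6 the log2 signal was 11.96, 12.27 and 12.31 in Rex1 cells, 12.63 and 12.67 in Bra cells, 12.23 and 12.86 in Flk1 cells and 13.42, 13.43 and 13.71 in Nkx2.5 cells. The Nkx2.5 values lay above all others, the Bra values lay above the Rex1 values, and the Flk1 range overlapped both. Nkx2.5 over Rex1 was 1.16, a 2.24-fold difference, and 1.09, just inside the rule, and Cldn6 was called. The call was lost with no background subtraction, with plain background subtraction and with the deposited series table. Nkx2.5 over Bra gave 0.75 and 0.84, and Nkx2.5 over Flk1 gave 0.85 and 0.90, so the larger part of the difference from stem cells lay between the mesodermal populations and Nkx2.5 cells. Bra over Rex1 gave 0.32 and 0.41, Flk1 over Rex1 0.26 and 0.31, and Flk1 over Bra -0.06 and -0.09.

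Cldn7, a claudin of tight junctions and of the lateral membrane, had a log2 signal of 11.30, 11.57 and 11.62 in Rex1 cells, 12.25 and 12.52 in Bra cells, 11.74 and 12.32 in Flk1 cells and 12.72, 13.20 and 13.23 in Nkx2.5 cells. The Nkx2.5 values lay above all others and the Rex1 values below all others. It was called in Nkx2.5 over Rex1 at 1.15, a 2.22-fold difference, and 1.33, and the call was lost with no background subtraction and with the deposited series table. Nkx2.5 over Bra gave 0.68 and 0.53, Nkx2.5 over Flk1 0.91 and 0.70, Bra over Rex1 0.62 and 0.47, Flk1 over Rex1 0.45 and 0.24, and Flk1 over Bra -0.18 and -0.23.

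**Figure D4:**
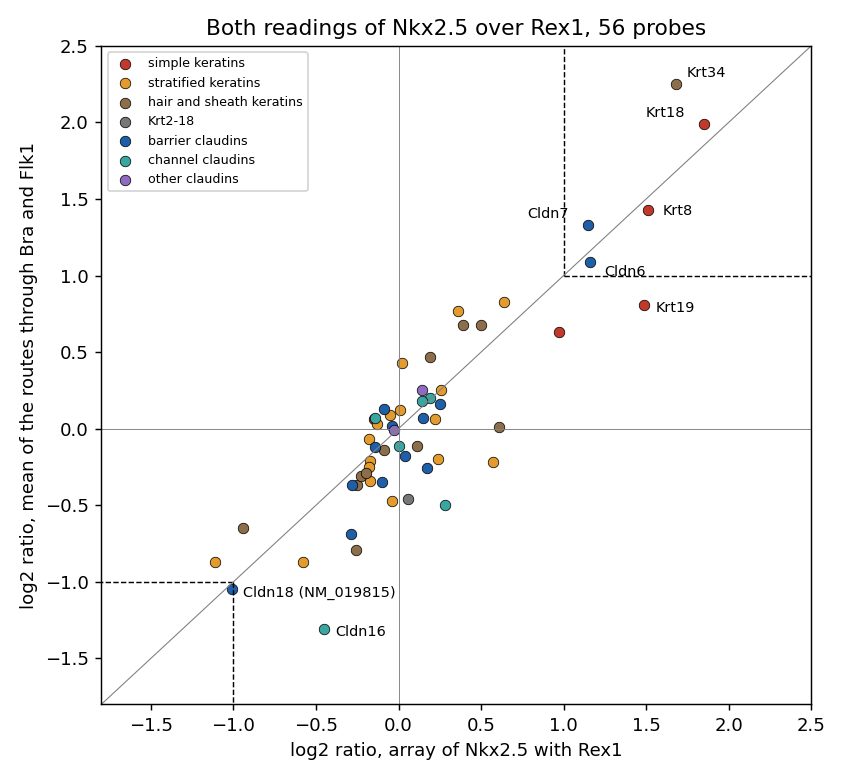
First reading (horizontal axis) against second reading (vertical axis) of the log2 ratio of Nkx2.5 over Rex1 for the 56 probes, coloured by family; the grey diagonal marks equal readings and the dashed corners the 2-fold rule. Krt18 (1.85 and 1.99), Krt8 (1.51 and 1.43), Cldn6 (1.16 and 1.09), Cldn7 (1.15 and 1.33) and Krt34 (1.68 and 2.25) lie inside the upper corner, Krt19 (1.49 and 0.81) just outside it, and 1 Cldn18 probe (-1.01 and -1.05) inside the lower corner.

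Cldn18, a claudin of lung and stomach, had 1 of 3 probes called lower in Nkx2.5 over Rex1. The probe for NM_019815 had a log2 signal of 10.27, 10.30 and 10.69 in Rex1 cells, 9.72 and 10.05 in Bra cells, 9.44 and 10.22 in Flk1 cells and 9.28, 9.65 and 9.66 in Nkx2.5 cells. The Rex1 values lay above all others. The readings of Nkx2.5 over Rex1 were -1.01 and -1.05, at the edge of the rule, and the call was lost without background subtraction. The other probes gave 0.04 and -0.18 (AF349450) and -0.29 and -0.69 (AF349451), so the 3 probes disagree in size.

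The other barrier claudins gave no call, and most of their ratios were small. Cldn4, which lies next to Cldn3 on chromosome 5, gave 0.25 and 0.16 in Nkx2.5 over Rex1, 0.31 and 0.51 in Nkx2.5 over Bra and 0.34 and 0.33 in Nkx2.5 over Flk1. Cldn3 gave -0.04 and 0.02, then -0.14 and -0.08, then -0.03 and -0.20. Cldn9, the neighbour of Cldn6 on chromosome 17, gave -0.14 and -0.12, then -0.28 and -0.36, then -0.08 and -0.03, and was not called. In Nkx2.5 over Rex1 the readings of Cldn1, needed for the barrier of the skin, were -0.28 and -0.37. Cldn8, of the distal kidney tubule, gave -0.10 and -0.35 there. Cldn11, of myelin and the testis, gave 0.17 and -0.26, with opposite signs. Cldn14, of the inner ear and kidney, gave 0.15 and 0.07, and Cldn19, of kidney and Schwann cells, gave -0.09 and 0.13.

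Channel-forming claudins were called in no comparison. Cldn2, which forms a channel for cations and water, gave 0.14 and 0.18 in Nkx2.5 over Rex1, 0.20 and 0.14 in Bra over Rex1 and 0.11 and 0.11 in Flk1 over Rex1. The 3 probes of Cldn10, which has cation and anion channel forms, gave 0.28 and -0.50 (AK020131), 0.19 and 0.20 (BC012238) and -0.00 and -0.11 (NM_021386) in Nkx2.5 over Rex1. Cldn15, a cation channel of the intestine, gave -0.14 and 0.07 there, with 0.39 and 0.10 in Nkx2.5 over Bra and -0.39 and -0.51 in Flk1 over Rex1. Cldn16, needed for magnesium uptake in the kidney, gave -0.45 and -1.31 in Nkx2.5 over Rex1 and -1.11 and 0.21 in Flk1 over Rex1, where its readings had opposite signs. Of the 2 claudins in neither class, Cldn12 gave -0.03 and -0.01 and Cldn13 gave 0.14 and 0.25 in Nkx2.5 over Rex1. Over the 21 claudin probes the medians were -0.00 and -0.01, with 2 called higher and 1 lower.

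Log2 ratios stayed below 0.5 in size on all 5 arrays for 34 of 56 members, or 60.7%, close to the 61.8% of all probes. They stayed below 1 for 47 members, or 83.9%, against 91.3% of all probes.

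The genes whose 5 log2 ratios lay nearest to those of Krt8 were Vamp8, with a root mean square difference of 0.200, P4ha1 (0.208), Gal3st1 (0.226), Sh3glb1 (0.227) and Serpinh1 (0.244). From Krt8, Cldn7 stood at 0.193, Cldn6 at 0.288 and Krt18 at 0.313. Krt18 and Cldn6 were farther apart, at 0.563. Nearest to Krt18 were H2-T23 (0.139), Anxa2 (0.167), Akr1c12 (0.253), Vamp8 (0.304) and Sh3glb1 (0.309). Nearest to Cldn6 were Gpx3 (0.136), Lipe (0.136), Serpinh1 (0.137), Pyy (0.157) and Ppic (0.164). The likeness is over 5 arrays that share 4 populations, among 14171 probes well above background throughout.

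Partners of keratins and claudins were taken from lists that held no member, and their counts stand beside the 2.68% of all probes called higher in Nkx2.5 over Rex1 and the 0.707% called lower. Of 22 probes for 19 tight junction genes, 2 were called higher and 1 lower in Nkx2.5 over Rex1. Marveld2, or tricellulin, which seals the corners where 3 cells meet, gave 2.61 and 2.84, and Patj, a scaffold of cell polarity, gave 1.11 and 1.25. Both were dim in Rex1 cells on every array. A probe of Jam2, an adhesion molecule, gave -2.14 and -1.20, and the other Jam2 probe gave 0.10 and -0.07. Ocln, which encodes occludin, gave 0.03 and -0.05, and Tjp1, which encodes the scaffold ZO-1, gave 0.07 and 0.19.

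Of 23 probes for 14 desmosome and linker genes, 3 were called higher in Nkx2.5 over Rex1 and none lower. They were probes of Jup, or plakoglobin, at 2.08 and 1.97, Pkp2, or plakophilin 2, at 2.71 and 2.41, and Dsc2, or desmocollin 2, at 1.11 and 2.82. Desmosomes also join heart muscle cells. The called probes of Pkp2 and Dsc2 were well above background in Rex1 cells on 1 of 3 arrays, and that of Jup on 2 of 3. The second probes of Pkp2 and Dsc2 gave -0.23 and 0.14 and then -0.26 and -0.39, so the probes disagreed. The epithelial adhesion genes Cdh1 and Epcam gave 0.28 and 0.47 and then 0.14 and -0.05. Of 15 probes for 9 other intermediate filament and lamin genes, 1 was called higher, that of Des, the muscle filament desmin, at 1.67 and 2.32. The Des probe was well above background in Rex1 cells on 2 of 3 arrays. The probes of Vim, the mesenchymal filament vimentin, gave 0.49 and 0.53 and then 0.77 and 0.66. Of 15 probes for 13 regulators of epithelial state, none was called higher and 2 lower, the 2 probes of Klf5, a factor of stem cells and of epithelia, at -1.41 and -1.58 and at -1.64 and -1.25. The medians of these 4 lists on the array of Nkx2.5 with Rex1 were 0.07, -0.14, -0.08 and -0.03.

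Markers of other epithelial cell types were measured beside these genes, since embryoid bodies can hold several and since Krt8 and Krt18 are also made in visceral endoderm and trophoblast. Of 20 probes for 15 visceral endoderm genes, 7 were called higher in Nkx2.5 over Rex1 and none lower, beside 2.68% and 0.707% of all probes, with medians of 0.36 and 0.69. The 7 included Afp, or alpha-fetoprotein, at 2.60 and 3.33, Ttr, or transthyretin, at 1.98 and 1.83, and Spink1 at 2.37 and 1.48. The others were probes of Sox17, Foxa2, Cubn and Soat2. The called Foxa2 probe gave 1.04 and 1.19, and another Foxa2 probe, well above background throughout, gave 0.27 and 0.29. Of the 20 probes, 14 were positive in both readings, 3 were negative in both and 3 had opposite signs. The 3 negative ones were Apob at -0.50 and -0.38, Apoa4 at -0.04 and -0.16 and a probe of Hnf4a at -0.15 and -0.19. Positive but uncalled probes included Rbp4 at 0.83 and 0.85 and a probe of Apoe at 0.74 and 0.76. The summed normalised signal of the 20 probes was 67983 to 73739 in Rex1 cells, 70226 to 72208 in Bra cells, 75460 to 81157 in Flk1 cells and 125008 to 132522 in Nkx2.5 cells. In Rex1 cells a probe of each of Afp, Apob, Cubn, Hnf4a and Soat2 was not well above background on any array, and in Nkx2.5 cells this held for a probe of Hnf4a. These 7 probes were higher in the same Nkx2.5 RNA as Krt8, Krt18, Cldn6 and Cldn7, and their part in the result was not tested.

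None of the 11 trophoblast probes, the 13 surface ectoderm probes or the 6 probes for mesothelium and epicardium was called in Nkx2.5 over Rex1. Over all probes, 2.68% were called higher and 0.707% lower there. At those shares, no call in lists of this size does not set them apart from other probes. The summed signal of the trophoblast probes was 32454 to 38020 in Rex1 cells and 30195 to 37840 in Nkx2.5 cells. That of the surface ectoderm probes was 40235 to 40335 and 32921 to 43573, and that of mesothelium and epicardium 19399 to 22936 and 20040 to 23672, so the ranges of Rex1 and Nkx2.5 cells overlapped for each of these lists. Of 8 cardiomyocyte probes, 5 were called higher and none lower, beside 2.68% and 0.707% of all probes, with medians of 1.59 and 1.41. Their summed signal was 42679 to 49617 in Rex1 cells and 89437 to 99281 in Nkx2.5 cells. The Myh6 probes disagreed. The called Myh6 probe, dim in Rex1 cells on every array, gave 2.81 and 1.62. The other, well above background throughout, gave -0.22 and -0.29. The called probe of Myl7 was well above background in Rex1 cells on 1 of 3 arrays and that of Tnnt2 on 2.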

How the data were processed

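RNA of 4 sorted mouse populations was compared on 5 two-colour arrays of 30000 spots. Per the labels, ratios run Cy5 over Cy3. Per the file headers, the deposited scanner files give median intensity, background and a ratio for each spot; tests on the files showed that background has 1 value for each of 48 blocks of 625 spots and was already subtracted. The ratio column deposited by the authors is the quotient of the channel intensities. The deposited series table holds log2 ratios shifted by 1 constant per array (range of differences 1.00e-06) for 28524 probes, 55 of them members; its scale and direction were settled by this match, and the reason for its shift is unknown. Its column medians were -0.0846 for the array of Bra with Rex1, -0.0599 for Flk1 with Rex1, -0.0578 for Nkx2.5 with Rex1, -0.00732 for Nkx2.5 with Bra and -0.0728 for Nkx2.5 with Flk1. The scanner software and genome build were not stated in these sources.

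Foreground signals were rebuilt, corrected with normexp (offset 50) and normalised by loess, giving control spots a weight of 0 (limma 3.58.1, R 4.3.3). Later steps used Python 3.11.15 with pandas 2.3.3. Channel levels were scaled between arrays by Aquantile, which stays open to dye bias. Spots marked Bad were kept, since 0 of them were well above background in both channels. The threshold part of the calling rule was run on simulated ratios with the same error for every probe, and the outcome is not given here. Every population was set well above background there, so the background condition and dim probes were not covered. Members were named through RefSeq genes of assembly GRCm38.p6: 34 probes by accession, 6 by symbol, 15 by synonym, and 1 kept its name in the files.

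Named genes were all simple keratins and claudins, other keratins that were called or were the 2 highest and 2 lowest in a comparison by the smaller reading (among probes of 1 sign in both readings whose brighter population was well above background on every array), and the 5 genes nearest Krt8, Krt18 and Cldn6. Members of the lists of partners and markers are examples, and those, with the keratins named beside the rule, were picked after their values were seen. Members and lists were chosen with earlier results of these data known. Other settings for background, normalisation, source, threshold and probes were tried. The number of arrays limits the precision, and the error was larger over all probes (0.244) than over those well above background throughout (0.202).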

Additional observations from a re-analysis of the deposited data

How the results depend on the processing

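Of the 6 probes called in Nkx2.5 over Rex1, 0 were called without background subtraction and 10 at a fold of 1.5; under the other settings there were 4 to 7. The 2 calls of Nkx2.5 over Flk1 became 0 without background subtraction and with the deposited series table, 1 with plain background subtraction and with median centring, and 5 at a fold of 1.5. Over all probes, 98 were called higher and 29 lower there. These counts were 3 and 0 without background subtraction and 46 and 20 with the deposited series table. They were 78 and 12 with plain background subtraction and 101 and 30 with median centring. Bra over Rex1, with 0 calls, gave 1 by least squares over the 5 arrays (Krt18), 1 where the brighter population had to be well above background on at least 1 array (Krt34), and 4 at a fold of 1.5. Nkx2.5 over Bra, with 0, gave 1 by least squares (Krt19) and 4 at a fold of 1.5. By least squares, 707 of all probes were called higher and 133 lower in Bra over Rex1. For Nkx2.5 over Bra these counts were 141 and 49. Flk1 over Rex1, with 0, gave 1 at a fold of 1.5 (Krt18), and Flk1 over Bra had 0 under every setting run. Without background subtraction the SD of the log2 ratios of all probes was 0.078 to 0.132, against 0.237 to 0.481. In that setting 102 of 336 member ratios moved by more than the error of 1 array, and 1 more was counted apart as reversed. There the called ratio of Krt34 in Nkx2.5 over Rex1 shrank to -0.0047, smaller in size than the error of 1 array. An offset of 16 and median centring moved 0 of 336, plain subtraction 15, least squares 33 and the deposited series values 14 of 330. Each pair was hybridised on 1 array, so no replicate could be left out. No paired analysis was possible because the labels give no replicate numbers and no test was made. Probes near background, such as Krt34, Krt16 and Krt82, have the least reliable ratios.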
